A study of Drosophila melanogaster with 8 samples.

Results

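The genes described here are known outputs or partners of the circadian clock of Drosophila: takeout (to), Slob, trpl, Lk6, Zw, Usp8, nocte and Mef2. They were taken by gene symbol from the platform annotation, by a list that names no measured value but was drawn up with earlier results of these arrays known, and 5 of the 8 genes (Slob, trpl, Lk6, Usp8 and nocte) had a named probe set, out of 12071 genes named on at least 1 array type. Those 5 genes were read by 7 probe sets on the older array type and 6 on the newer. The annotation used here lists no probe set for to, Zw or Mef2, which were not analysed here. takeout encodes a carrier-like protein tied to feeding and starvation, Zw the first enzyme of the pentose phosphate pathway and Mef2 a MADS-box transcription factor of muscle and clock neurons.

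The RNA came from S2 cells, an embryonic Drosophila melanogaster line with haemocyte traits, that carried CLKGR, the clock activator CLK joined to the hormone-binding domain of a glucocorticoid receptor. On each array type 2 arrays were labelled DEX+CHX, for dexamethasone, which frees the fusion protein, with cycloheximide, which stops translation. Their controls were 2 arrays labelled EtOH+CHX (ethanol) on the older type and 2 labelled V+CHX on the newer, where V is not spelled out. All 8 arrays therefore share the fusion and cycloheximide. The label of 1 array states stable transfection, and no label says whether the cells were 1 clone, or whether a group's arrays were separate cultures. If they were not, the p-values below cover technical spread alone. For 1 newer DEX array, called DEX replicate 2 here after its title, another label carries replicate number 1.

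In the fly clock, CLK and its partner CYC bind E-box elements and switch on the genes of their own repressors as well as a wider set of output genes. Output transcripts cycle in heads, fat body or neurons, often through further transcription factors, so that only part of them are bound by CLK itself. Dexamethasone given with cycloheximide asks which transcripts follow the activator without new protein.

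Values are log2 of the deposited intensity, a linear measure that GCRMA made from the probes of a set. The deposited values run above 65535, the top of a 16-bit scanner, on 67 to 70 probe sets of each older array and 139 to 142 of each newer array, and no source used here names the base by which they left the log scale. Every difference below would shrink by a factor of 0.693 if that base were e, and its p-value would not change. Within an array type, probe sets with a mean log2 intensity under 4 were not tested, which left out 26.6% of the older and 33.7% of the newer type. The fits of both types took the minimum over all 8 arrays, so that a gene could enter them with 1 of its probe sets under 4. A lower level can mean fewer cells with a transcript or less of it per cell, which array values of bulk RNA cannot tell apart.

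The labels and the clock's own target genes did not run the same way on both array types. On the older type the DEX arrays were higher in vri (4.04 ± 0.26 (SE) on log2, limma adjusted p = 0.0056), Pdp1 (2.34 ± 0.17, adjusted p = 0.0104) and cwo (3.51 ± 0.27, adjusted p = 0.0112). On the newer type the arrays labelled DEX were lower than those labelled V, by -2.07 ± 0.16 for vri, -2.14 ± 0.25 for Pdp1 and -2.90 ± 0.66 for cwo, none of which passed in that type alone. The calls of the older type depend on the scaling and the controls: with median centring or repeated quantile normalisation the adjusted p of these 3 genes lay between 0.0847 and 0.235, and without EtOH replicate 1 or 2 between 0.139 and 0.263, at differences of 2.23 to 4.17. A further cwo probe set on each type differed by 2.91 ± 0.29 against EtOH (limma adjusted p = 0.0297) and by -2.28 ± 0.65 against V (adjusted p = 0.865). tim, read by several probe sets, differed by 1.96, 2.62 and -0.04 against EtOH and by -2.54 and -2.53 against V. Of the tim differences, only that of 1.96 was called (limma adjusted p = 0.0063). Clk ran the other way, by -0.89 against EtOH and 0.33 against V, without a call. cyc differed by 0.08 and -0.05. per differed by -0.01 against V and was under the minimum on the older type, as cry was on both. No source used here settles whether the labels of either type are exchanged. Each member is therefore given within its own array type, by label, and "DEX" on the newer type means the arrays labelled so. Were the newer labels exchanged, every newer difference below would keep its size and change its sign. Of the haemocyte markers, 10 of 10 lay above the minimum on each type and none was called. Hml stood at 8.74 with DEX and 8.67 with EtOH on the older type, and at 9.70 with DEX and 9.65 with V on the newer. Markers further from 0, named after their values were seen, were Col4a1 (-0.66, adjusted p = 0.669) and srp (0.53, adjusted p = 0.738) against EtOH and NimC1 (0.51, adjusted p = 0.865) against V, each with no overlap of the groups. On the other array type these markers differed by 0.06, -0.06 and -0.02 in the same order, with overlap. Their part in the member values was not tested. The 4 of 6 photoreceptor markers with a named probe set summed to between 84.6 and 87.3 intensity units with DEX and between 83.0 and 89.7 with EtOH on the older arrays, and to between 49.0 and 49.2 with DEX and between 49.1 and 49.6 with V on the newer. Of those 4, 3 lay above the minimum on the older type and 1 on the newer. The haemocyte marker NimC1 was at 4.51 with DEX on the older type and the photoreceptor marker inaD at 4.85, so the minimum alone does not separate the cell types.

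None of the 9 member probe sets that reached the minimum was called with DEX, 0 of 5 on the older type and 0 of 4 on the newer (limma, smallest adjusted p = 0.932 and 0.865). In the same fits 27 of 10250 probe sets were called on the older type, a background of 0.263%, and 0 of 12436 on the newer, a background of 0%, with 600 and 439 at an unadjusted p under 0.05. The only member among those was Usp8 on the newer type. Differences ran between -0.38 and 0.64 on log2. Outside trpl, the 95% intervals of the differences stayed between -0.80 and 1.04, which leaves changes of the size seen in vri, Pdp1 and cwo outside them. The groups did not overlap on 1 of the 5 member probe sets of the older type, where 26.6% of all tested probe sets had no overlap, and on 2 of the 4 of the newer type, where 36.9% had none.

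**Figure D1:**
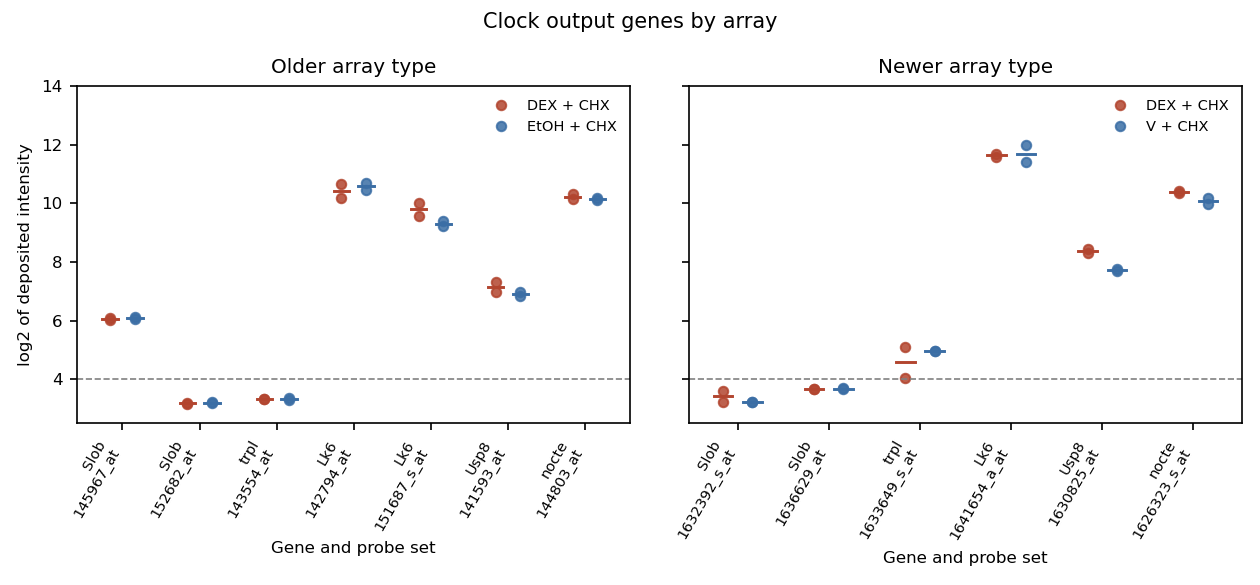
Log2 of the deposited intensity (vertical axis) of every member probe set, on the older type (left) and the newer type (right), with 1 point per array, DEX arrays left of their controls, a bar at each mean and a dashed line at the minimum of 4. Usp8 on the newer type shows the widest gap between groups among the probe sets with no overlap, 8.37 with DEX and 7.73 with V.

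Usp8 encodes a deubiquitinating enzyme of endosomal sorting that has also been described in flies as removing ubiquitin from CLK. On the newer type its log2 intensity was 8.43 and 8.31 on the DEX arrays, against 7.69 and 7.77 on the V arrays. Both DEX arrays lay above both V arrays, by more than the gap between arrays of either group. The difference was 0.64 ± 0.11 (SE; 95% interval 0.29 to 0.99), or 1.56-fold on the deposited scale and 1.36-fold if the base were e. Its unadjusted p was 0.0095 and its adjusted p 0.865 (limma), so it did not pass over all probe sets. The older arrays put Usp8 at 6.96 and 7.32 with DEX, against 6.84 and 6.97 with EtOH. These groups overlapped, the lower DEX array lying just under the higher EtOH array, and the difference was 0.24 ± 0.18 (interval -0.20 to 0.68, adjusted p = 1.000). Without DEX replicate 2 the older difference was 0.06, and without DEX replicate 1 it was 0.42, so the size on that type depends on which array is used.

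As labelled, Usp8 had positive differences on both array types, whereas the differences of vri, Pdp1 and cwo had opposite signs. The newer-type effect on Usp8 exceeded the older-type effect by 0.40 ± 0.24 (interval -0.18 to 0.97, limma adjusted p = 1.000). In the fit of both array types, 4 DEX arrays against 4 controls with type as a block, the common difference was 0.44 ± 0.13 (interval 0.13 to 0.75, unadjusted p = 0.0119, adjusted p = 0.901). That fit called 0 of 8404 genes, a background of 0%, with 308 at an unadjusted p under 0.05. With the sign of the newer difference turned, a fit added after the values were seen, the common difference of Usp8 was -0.20 ± 0.19 (interval -0.65 to 0.25, adjusted p = 1.000), so its direction over both types rests on the newer labels. The turned fit called 18 of 8404 genes, a background of 0.214%, and 0 of the 5 members. Among the genes called were vri (3.06, limma adjusted p = 0.030), Pdp1 (2.24, adjusted p = 0.0010) and cwo (2.91, adjusted p = 0.024), and not tim (2.58, adjusted p = 0.348). As labelled, the probe sets of these genes in the fit had opposite signs on the 2 types, seen before the turned fit was added. Turning 1 sign aligned them, so their turned values do not test the labels. The test of the difference between types called 25 of the same 8404 genes, a background of 0.297%, and 0 of the 5 members read on both types.

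nocte, named for flies that fail to set their clock by temperature cycles, encodes a large protein needed for that temperature input. It was well above the minimum everywhere. By the older arrays it was at 10.31 and 10.14 with DEX, against 10.18 and 10.12 with EtOH, and the groups overlapped. The difference was 0.08 ± 0.18 (interval -0.37 to 0.53, adjusted p = 1.000), and -0.0041 without DEX replicate 1. The newer arrays put it at 10.34 and 10.41 with DEX, against 10.19 and 9.99 with V. Both DEX arrays were higher there, by 0.29 ± 0.12 (interval -0.09 to 0.66, unadjusted p = 0.0936, adjusted p = 0.865), on a probe set ending in _s_at, which can read more than 1 transcript or gene. The effects differed by 0.20 ± 0.21 between types (adjusted p = 1.000), and the common difference was 0.18 ± 0.10 (interval -0.05 to 0.42, adjusted p = 0.901), or -0.10 ± 0.12 (adjusted p = 1.000) with the newer sign turned.

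Lk6 encodes the fly relative of the mammalian MNK kinases, which phosphorylates the cap-binding protein eIF4E. Its plain probe set on the older type was at 10.18 and 10.65 with DEX, against 10.47 and 10.70 with EtOH. The groups overlapped, and the difference of -0.17 ± 0.23 (interval -0.74 to 0.40, adjusted p = 1.000) became 0.07 without DEX replicate 1. The other older probe set, which ends in _s_at and so is uncertain, was at 9.56 and 10.02 with DEX, against 9.22 and 9.39 with EtOH. Here both DEX arrays were higher, by 0.49 ± 0.23 (interval -0.07 to 1.04, unadjusted p = 0.0745, adjusted p = 0.932). On the newer type a single probe set, ending in _a_at, was at 11.69 and 11.59 with DEX, against 11.98 and 11.40 with V. The DEX arrays lay between the V arrays, with a difference of -0.05 ± 0.25 (interval -0.80 to 0.70, adjusted p = 0.962) that became 0.24 without V replicate 1 and 0.0020 without DEX replicate 2.

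The 2 older Lk6 probe sets gave differences of opposite sign, and the gap between them varied less between arrays of a group than either reading did. Taken within each array, the _s_at value minus the plain _at value was -0.61 and -0.63 on log2 with DEX, against -1.25 and -1.31 with EtOH. The means were -0.62 ± 0.01 (SD, n = 2) with DEX and -1.28 ± 0.04 (SD, n = 2) with EtOH. The shift of 0.65 ± 0.07 (SE) had an unadjusted p of 0.0021 and an adjusted p of 0.305 in a limma fit without an intensity trend. That fit, chosen after these values were seen, ran over the 683 genes with more than 1 probe set above the minimum on that type. The fit called 0 of those genes, with 62 at an unadjusted p under 0.05, and Lk6 ranked 3 among them by p. The shift therefore did not pass over those genes, and it does not say which of the probe sets followed the Lk6 transcript.

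**Figure D2:**
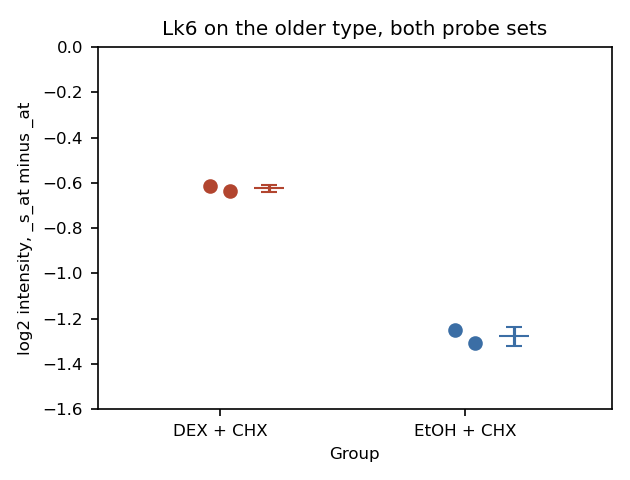
The _s_at minus the plain _at probe set of Lk6 within each older array (vertical axis, log2 of intensity), with 1 point per array and, beside the points, the mean with its SD. The DEX arrays are at -0.61 and -0.63 and the EtOH arrays at -1.25 and -1.31.

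Slob encodes a protein that binds and tunes the calcium-activated potassium channel Slowpoke, and its transcript is known to cycle in fly heads. Of its 2 older probe sets 1 was above the minimum, at 6.10 and 6.02 with DEX, against 6.05 and 6.13 with EtOH. These groups overlapped and the difference was -0.03 ± 0.12 (interval -0.34 to 0.28, adjusted p = 1.000). The other older probe set was at 3.17 and 3.21 with DEX, against 3.18 and 3.23 with EtOH. Both newer Slob probe sets were under the minimum. The plain one was at 3.67 and 3.67 with DEX, against 3.68 and 3.69 with V. The _s_at one was at 3.22 and 3.61 with DEX, against 3.22 and 3.22 with V, and the higher value came from DEX replicate 2. In all, 3 of the 4 Slob probe sets gave no level above the minimum, so the test within a type was made on the older type only, through 1 probe set. The fits of both types set that probe set beside the plain newer one, which is under the minimum, and gave an effect of 0.02 ± 0.11 newer minus older and a common difference of -0.02 ± 0.05 (adjusted p = 1.000 and 0.951).

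trpl encodes a cation channel of the photoreceptor light response, a relative of trp. On the older type it was under the minimum, at 3.32 and 3.34 with DEX, against 3.31 and 3.37 with EtOH. Its newer probe set, which ends in _s_at, was at 5.12 and 4.03 with DEX, against 4.95 and 4.95 with V. A single array, DEX replicate 2, stood below the other 3. The difference of -0.38 ± 0.43 (interval -1.70 to 0.94, adjusted p = 0.869) was the least precise of the members and became 0.16 without that array. The test of the difference between types, which used the older probe set although it is under the minimum, gave -0.37 ± 0.42 (adjusted p = 1.000) with all arrays and -0.91 (adjusted p = 0.0099) without DEX replicate 1 of the newer type, where the low array is the whole DEX group. Of the other phototransduction genes, 10 of 17 had a named probe set. trp, the partner channel, was at 4.64 with DEX and 4.64 with EtOH by the older arrays. By the newer it was at 3.80 with DEX and 3.82 with V, under the minimum and so not tested.

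**Figure D3:**
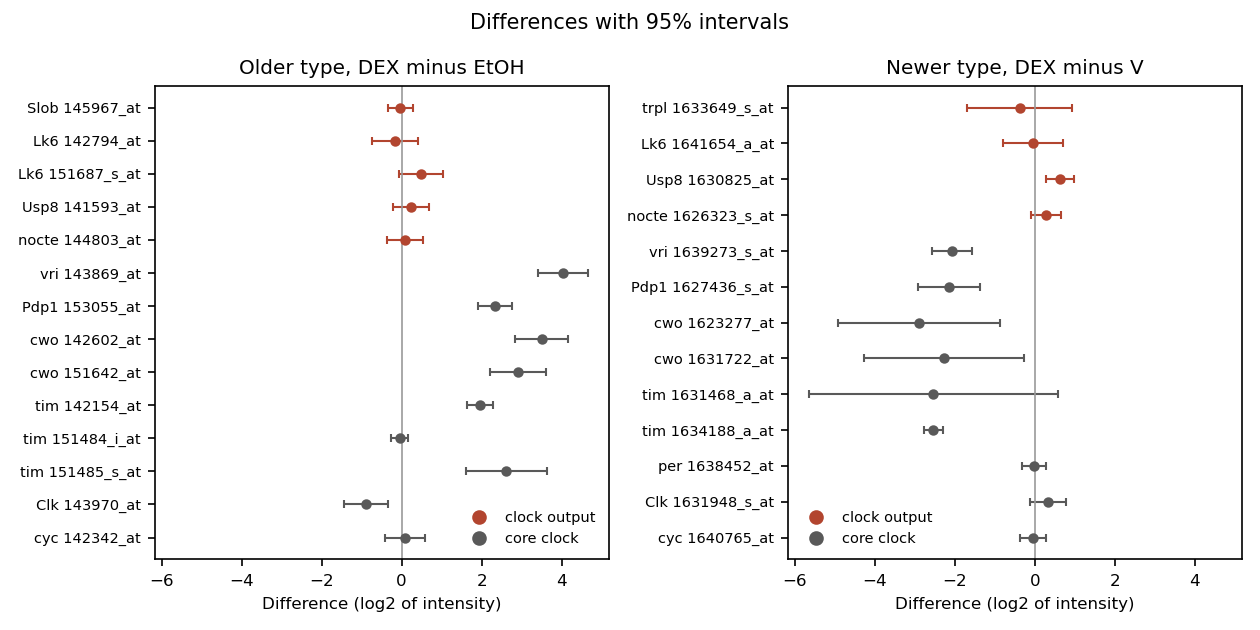
DEX minus control on log2 of intensity (horizontal axis) with 95% limma intervals, for each tested probe set of the clock output genes (red) and of the core clock genes (grey), on the older type against EtOH (left) and on the newer type against V (right). Clock output differences lie between -0.38 and 0.64, while vri is at 4.04 against EtOH and -2.07 against V.

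Genes that work beside the members were read on the same arrays, by lists of 10 or more genes, each gene by its brightest probe set. None of their tested genes was called on either array type, nor in the test of the difference, against the backgrounds given above. Of 22 other genes tied to clock output, 19 had a named probe set, 13 were tested on the older type and 9 on the newer. Their median differences were -0.01 and -0.06 on log2, beside -0.01 and -0.0045 over all tested probe sets. lark, an RNA-binding regulator of rhythmic eclosion, was at 9.31 and 9.34 with DEX and at 9.20 and 9.24 with EtOH on the older type. Its newer probe set, an uncertain _s_at, was at 13.17 and 12.99 with DEX and at 13.20 and 13.26 with V. slo, the channel gene whose product Slob binds, was at 4.51 and 4.53 with DEX and at 4.47 and 4.58 with EtOH on the older type, near the minimum, and under it on the newer. Dh44, a neuropeptide gene downstream of clock neurons, differed by 0.08 ± 0.10 against EtOH and by 0.19 ± 0.05 against V, and did not pass (adjusted p = 1.000 and 0.865). Its levels were low: 5.47 with DEX and 5.39 with EtOH on the older type, and 4.99 with DEX and 4.80 with V on the newer.

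Genes of the USP family and of the ESCRT machinery, with which Usp8 works at endosomes, were nearly all measured. All 20 USP-family genes listed beside Usp8 had a named probe set, of which 19 were tested against EtOH and 20 against V, with median differences of 0.04 and -0.01. The smallest p in the test of the difference belonged to scny, a deubiquitinase of histones and cell death proteins, which was 0.53 lower on log2 with DEX on the older type (8.02 and 8.19, against 8.88 and 8.39 with EtOH, adjusted p = 0.877). By the newer arrays scny was at 11.26 and 11.09 with DEX, against 11.08 and 11.30 with V. All 13 ESCRT genes, which sort ubiquitinated cargo into endosomes, were tested on both types. Their median difference was 0.24 on the older type, with 11 of 13 positive and 0 called, and 0.05 on the newer, with 9 of 13 positive and 0 called. In the USP list 11 of 19 and 9 of 20 were positive. The share of positive differences over all tested probe sets is not given here, so these counts stand without a background. Stam, which holds ubiquitinated cargo together with Hrs, was at 6.99 and 7.05 with DEX, against 6.08 and 6.54 with EtOH, on the older type (0.71 ± 0.19, adjusted p = 0.472). The newer arrays put Stam at 10.82 and 10.95 with DEX, against 11.07 and 10.88 with V, so that the groups overlapped there and not on the older type.

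Beside Lk6, 7 of 11 genes of the eIF4E and MAP kinase axis were tested on each type, with median differences of 0.20 and 0.05 and 0 called. eIF4G1, the scaffold that brings MNK kinases to eIF4E, was at 8.68 and 8.81 with DEX, against 8.15 and 8.21 with EtOH, on the older arrays (0.57 ± 0.17, adjusted p = 0.594). It was at 10.83 and 10.71 with DEX, against 10.58 and 10.45 with V, on the newer arrays (0.25 ± 0.11, adjusted p = 0.865). Its DEX arrays were the higher ones on both array types, and neither difference passed. Dsor1, the fly MEK gene of the same list, named after its values were seen, was the reverse: its DEX arrays were the lower ones by -0.40 ± 0.22 against EtOH and by -0.37 ± 0.11 against V (adjusted p = 1.000 and 0.865).

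The other lists had medians near 0. The takeout family had 6 genes tested against EtOH and 2 against V, with medians of -0.04 and 0.07. Phototransduction had 8 and 5, with medians of -0.02 and -0.01, the pentose phosphate pathway around Zw 6 and 6, with medians of 0.03 and 0.10, and the list of MEF2 with muscle genes 4 and 6, with medians of -0.01 and -0.01. Single genes lay further out. Pgls, the enzyme that follows Zw, was at 7.92 and 6.65 with DEX, against 6.46 and 6.52 with EtOH (0.80 ± 0.39, adjusted p = 0.964). This difference was larger than that of any member and came mostly from 1 DEX array, while Pgls differed by -0.08 ± 0.13 against V. Taldo, a transaldolase gene, was 0.24 ± 0.07 apart on the newer type (adjusted p = 0.865). sls, which encodes a giant muscle protein, was -0.33 ± 0.12 apart on the older (adjusted p = 0.734), at low levels of 5.14 with DEX and 5.47 with EtOH. Of the markers of neurons, the cells in which Slob is best known, 6 of 7 had a named probe set, with 4 of the 6 above the minimum on the older type and 5 on the newer. These 6 summed to between 146.9 and 154.2 intensity units with DEX and between 148.4 and 153.8 with EtOH. On the newer arrays their sum lay between 125.5 and 128.5 with DEX and between 131.2 and 173.9 with V. The highest sum was that of V replicate 1, where elav was at 6.44 on log2, against 5.51 on V replicate 2. The part of these sums in the Slob and trpl values was not tested.

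**Figure D4:**
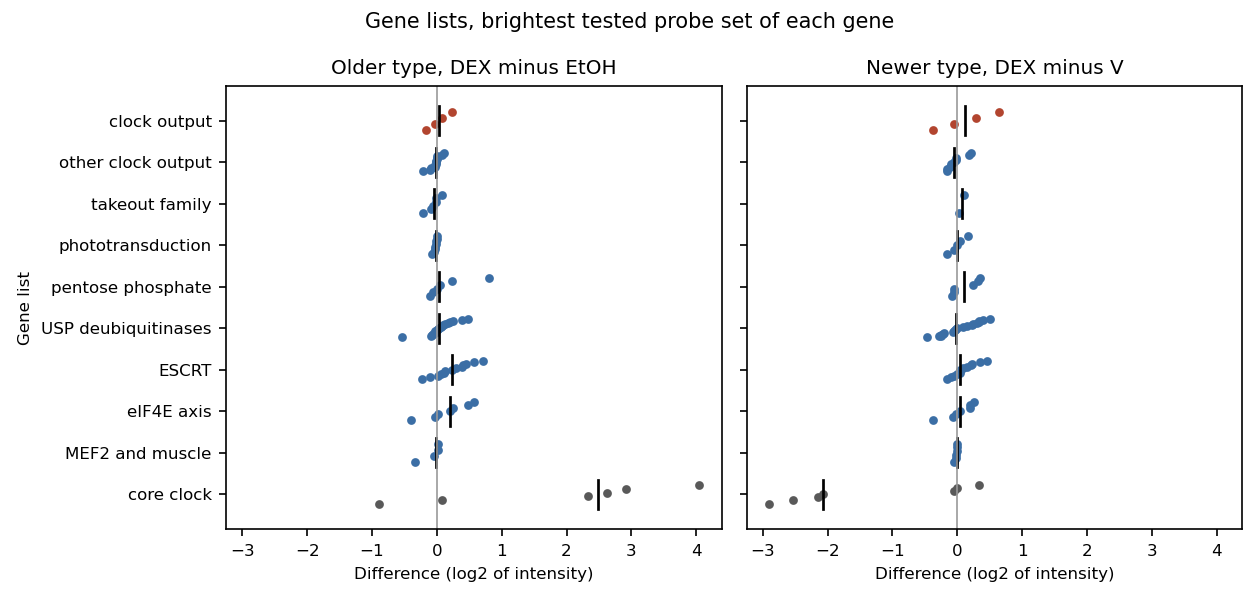
DEX minus control on log2 of intensity (horizontal axis) for each gene list (vertical axis), on the older type against EtOH (left) and the newer type against V (right), with 1 point per tested gene by its brightest probe set and a black bar at the list median. The clock output medians are 0.03 and 0.12, and the core clock medians 2.48 and -2.07.

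Likeness of pattern was measured for Usp8, nocte and trpl, the members with the smallest p in the test of the difference, as Pearson's r over the 8 arrays after each array value was set against the mean of its own table, among 8403 other genes. These are the highest of many correlations and are descriptions. Usp8 was most like STUB1 (0.955), a chaperone-linked ubiquitin ligase gene, Tmx3 (0.954) and CG5934 (0.954). STUB1 had differences of 0.17 against EtOH and 0.43 against V, and CG5934 of 0.35 and 0.82. nocte was most like Cdc23 (0.977), a subunit gene of the anaphase-promoting complex, C1GalTA (0.972) and CG2310 (0.961). trpl was most like p130CAS (0.996), SamDC (0.993) and msps (0.991), with newer-type differences of -0.41, -0.33 and -0.38 for these 3. All arrays of a type share their normalisation, and the trpl pattern is the low value of DEX replicate 2 on the newer type.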

How the data were processed

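Total RNA was labelled with biotin and hybridised to 8 arrays of 2 types. The deposited intensity values, 1 per probe set and array, were made with GCRMA, per the submitters' processing notes, and stand in 1 table per array type; no source used here states its version. The log2 of each intensity was taken without an offset. Control probe sets (44 and 183) were left out. Each table was fitted with limma 3.58.1 in R 4.3.3 (lmFit, eBayes with an intensity trend, two-sided, Benjamini-Hochberg, threshold 0.05), with 2 residual degrees of freedom. For genes read on both types, the brightest probe set on each entered a fit with an interaction term (newer minus older effect) and a fit with type as a block. Levels were not compared between tables, and the number of arrays limits the precision.

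Probe sets were named by the platform annotation, updated through RefSeq genes of Release 6 plus ISO1 MT: 12444 and 13647 probe sets had 1 symbol, 327 and 402 several, and 1239 and 4903 none (older and newer type); 12394 and 13544 matched a current gene. No sequences or coordinates were used. The members and gene lists were chosen with earlier results of these data known. All member probe sets are named, with up to 3 genes of a list by the smallest p of the difference; trp, the haemocyte markers and the core clock genes are named as markers or as a check of the labels. The fits of both types used the minimum over all 8 arrays. The code was tested on simulated data, with 200 genes changed. The arrays had no identical columns. Scaling, minimum level, offset, variance prior, replicate block and left-out arrays were tried as alternatives.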

Additional observations from a re-analysis of the deposited data

Results flagged for a closer look

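No member's effect differed between array types by the test of the difference. Of the core clock genes, vri, Pdp1 and cwo did: newer minus older, their effects differed by -6.11 ± 0.34 (SE) for vri (adjusted p = 0.0011), -4.48 ± 0.29 for Pdp1 (adjusted p = 0.0020) and -5.81 ± 0.72 for cwo (adjusted p = 0.0398), by limma on 8404 genes. In the same test tim (-5.15, adjusted p = 0.372) and Clk (1.22, adjusted p = 0.429) did not pass. The older cwo probe set in this test is the one brightest over all 4 older arrays, with an effect of 2.91, not the one of 3.51 in the report. The cwo call was lost in 12 of 16 alternatives (adjusted p from 0.0055 to 0.406, the highest with the replicate block), and the Pdp1 call in 1 of 15, without EtOH replicate 1 (adjusted p = 0.0614). The vri call was kept in 15 of 15. These counts leave out the added fit with the newer sign turned, where vri, Pdp1 and cwo all lost their calls. There their effects differed by -1.97, -0.19 and -0.01 (limma adjusted p = 0.395, 0.946 and 0.997). Turning 1 of 2 opposite signs brings such effects together by construction, so these losses do not test the labels. The newer probe sets of vri and Pdp1 end in _s_at and are uncertain. No group held enough arrays within 1 table to look for outlying arrays.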

How the results depend on the processing

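The members were not called under the alternatives tried, with 1 exception among 271 refitted values: trpl in the test of the difference without DEX replicate 1 of the newer type (-0.91, adjusted p = 0.0099). Differences changed sign in 21 of them, none of which passed. On the older type, quantile normalisation repeated gave -0.038 for nocte. Leaving out 1 array gave differences from -0.0041 to 0.17 for nocte, from -0.072 to 0.013 for Slob and from -0.41 to 0.070 for the plain probe set of Lk6. On the newer type it gave from -0.34 to 0.24 for Lk6 (0.0020 without DEX replicate 2) and from -0.92 to 0.16 for trpl. In the test of the difference the left-out arrays gave from -0.17 to 0.41 for Lk6 (-0.12 without DEX replicate 1 of the older type), from -0.024 (EtOH replicate 2) or -0.026 (DEX replicate 2 of the older type) to 0.058 (EtOH replicate 1) or 0.059 (DEX replicate 1 of the older type) for Slob, and 0.17 for trpl without DEX replicate 2 of the newer type. In the fit of both types Slob came to 0.0017 with median centring and trpl to 0.060 without DEX replicate 2 of the newer type. With the newer sign turned, an alternative added after seeing the data, the fit of both types gave -0.20 for Usp8, -0.10 for nocte and 0.19 for trpl, and the difference between types -0.88 for Usp8, -0.37 for nocte and 0.39 for trpl. With the labels as given, Usp8 had a positive difference in every fit tried, between 0.06 and 0.42 on the older type, 0.58 and 0.70 on the newer and 0.37 and 0.55 over both.

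Counts of calls moved more. On the older type 27 probe sets became 0 with median centring, 4 with quantile normalisation repeated, 73 with no minimum level, 13 with a minimum of 6, 61 with an offset of 16, 12 without the intensity trend and 14 genes in the fit of all 8 arrays. Leaving out 1 array gave from 0 (either EtOH array) to 455 (DEX replicate 2; 263 without DEX replicate 1). On the newer type 0 became 14 in the fit of all 8 arrays, and 0 otherwise. In the test of the difference 25 genes became 12 with plain _at probe sets only, and from 7 to 89 with 1 array left out: 7 and 11 without EtOH replicate 1 and 2, 15 without DEX replicate 2 of the older type, 89 and 42 without V replicate 1 and 2, and 65 and 47 without DEX replicate 1 and 2 of the newer type. The fit of both types called 0 under each alternative, the added average of both effects included, except 18 genes with the newer sign turned, where the test of the difference called 0. With the replicate number as a block, 34 probe sets were called on the older type, 0 on the newer, 6 genes in the difference and 0 over both. Same-numbered arrays deviated together at r = 0.264 among older and -0.023 among newer arrays. A single r per type cannot settle whether the numbers pair the arrays, and the main fits did not use them as pairs. The cause of these changes was not tested.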
